A study of Homo sapiens with 6 samples.

Results

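The genes described here are 10 genes, most of which ERK signaling is known to induce and most of which act back on the same pathway: DUSP1, DUSP4, DUSP5, DUSP6, DUSP10, SPRY2, SPRY4, SPRED1, SPRED2 and PHLDA1. They were taken by name as a readout of ERK activity and are 10 of the 58174 genes in the table. All of them were detected in every sample and all passed the filter on low values. The samples are cultures of SiHa, an established line from a human cervical squamous cell carcinoma, profiled by mRNA sequencing 48 h after transient transfection with a lipid reagent. The OV-BRCA1 group received the GV230-BRCA1 plasmid (3 samples) and the NC group received the GV230 plasmid alone (3 samples), so both groups were exposed to plasmid DNA and to the transfection reagent. The promoter that drives BRCA1 in GV230 and the share of transfected cells are not given in the sources used here. In RNA from a whole culture, a change in every cell and a larger change in some of the cells cannot be told apart.

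ERK is the last kinase of the RAS, RAF and MEK cascade, which carries growth factor signals from receptors such as EGFR to the nucleus. Active ERK switches on genes whose products limit it. Dual-specificity MAP kinase phosphatases (DUSP genes) remove phosphate from ERK, JNK or p38, whereas Sprouty (SPRY) and Spred (SPRED) proteins act higher up, between the receptor and RAF. Because their mRNAs follow pathway activity, DUSP6, SPRY4 and related genes are widely used as transcript markers of ERK output in tumor cells.

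FPKM (fragments per kilobase of transcript, scaled to the mapped fragments of the sample) was added up over all transcripts of a gene, and groups were compared on log2(FPKM + 1) with the moderated test of limma. "Rose" and "fell" mark a p-value that stayed under 0.05 after Benjamini-Hochberg adjustment over the 16321 tested genes, and a DEG also changed by more than 1 on the log2 scale in either direction. From the FPKM value of 1 fragment, the depth was estimated at 13680000 to 19190000 fragments per sample. BRCA1 itself was higher in the OV-BRCA1 group, at 35.7, 40.8 and 34.9 against 20.1, 14.9 and 21.7 FPKM, without overlap. Of 9 epithelial markers, KRT7, KRT8, KRT17 and KRT18 were abundant (group means of 192 to 1701 FPKM), whereas KRT5, KRT19, CDH1 and TP63 were near 0 (group means of at most 0.726). KRT8 (log2 fold change 0.20), KRT18 (0.39) and EPCAM (1.12, with group means of 6.79 against 2.59 FPKM) rose, KRT17 fell by 0.48 on the log2 scale and KRT7 did not pass. Of 8 markers of other cell types PECAM1 had the highest group mean (1.02 FPKM), and PTPRC, VWF and LUM were listed at 0 in all samples. Mitochondrial transcripts took 14.8% to 17.2% of FPKM in OV-BRCA1 samples and 21.0% to 23.2% in NC samples, and rescaling to nuclear protein-coding genes was tried as an alternative for this reason.

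Of the 10 genes, 8 rose in the OV-BRCA1 group, 1 (DUSP1) fell and 1 (DUSP10) did not pass the test. Without OV-BRCA1 replicate 1 or without OV-BRCA1 replicate 2, 5 rose, as DUSP6, SPRY2 and PHLDA1 no longer passed. Over all genes tested, 16.4% rose and 18.9% fell, so 35.3% passed in either direction. That balance depended on the scaling, with 2674 genes higher and 3090 lower as reported, 2963 and 2775 with median-of-ratios scaling, and 2366 and 3475 with scaling to nuclear protein-coding genes. The 10 genes had a median log2 fold change of 0.47 against -0.04 over all genes tested. DUSP5 and PHLDA1 were upregulated DEGs, a criterion that 2.89% of all genes met upward and 1.10% downward. The groups did not overlap in 9 of the 10 genes, with OV-BRCA1 above NC in 8 and below it in DUSP1. Over all genes tested, 50.8% did not overlap, 23.4% with OV-BRCA1 above and 27.4% with it below. The genes were chosen with earlier results of these data known, so these counts describe the list and are not a test of it.

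**Figure D1:**
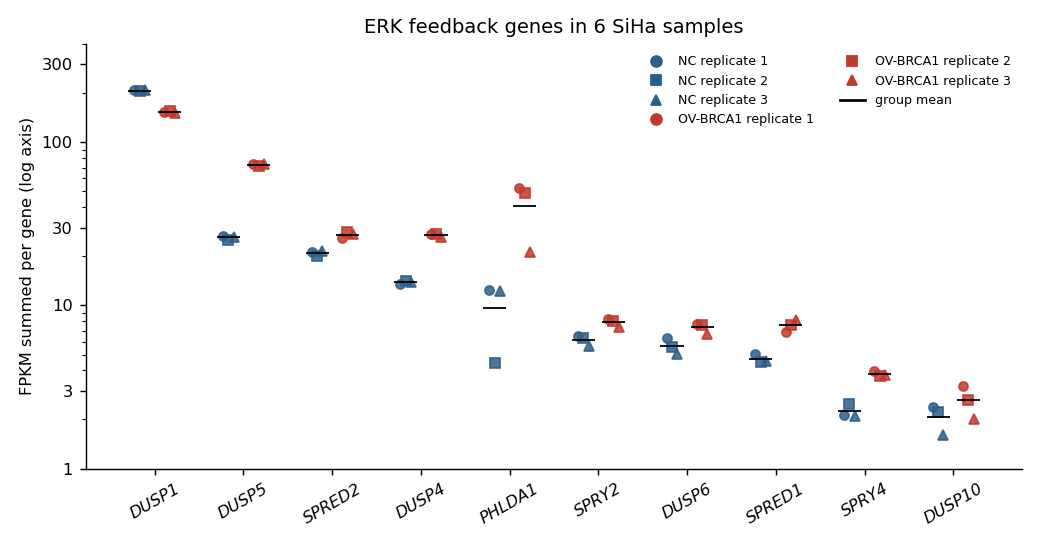
FPKM summed per gene (vertical log axis) of the 10 ERK feedback genes in the 3 NC samples (blue) and the 3 OV-BRCA1 samples (red), with bars at the group means, ordered by the NC mean. DUSP1 lies lower in the red samples, DUSP10 overlaps between the groups, and the other 8 genes lie higher in red, with PHLDA1 spread most widely within both groups.

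DUSP1, DUSP4 and DUSP5 are nuclear phosphatases that are induced as early response genes. DUSP1 (ENSG00000120129, GRCh38 chromosome 5, 172768090 to 172771195, minus strand) acts on p38 and JNK as well as ERK and was the most abundant of the 10 genes in both groups. OV-BRCA1 replicates 1, 2 and 3, in that order here and below, had 154, 154 and 152 FPKM of DUSP1, and the NC replicates had 209, 205 and 208 FPKM. The 2 groups were far apart relative to their spread, with means of 153 ± 1.17 and 207 ± 2.13 (SD, n = 3 each), and mean FPKM fell by 26.0%. DUSP1 had a log2 fold change of -0.43 (SE, standard error, 0.04, limma adjusted p = 0.000393). This call held in all 13 alternatives, over which the log2 fold change ran from -0.47 to -0.39. The gene has 1 transcript in the files, so no division between transcripts enters its value.

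DUSP5 (ENSG00000138166, chromosome 10, 110497838 to 110511544, plus strand), a nuclear phosphatase selective for ERK, changed with the smallest adjusted p-value of the list. Its level was 73.3, 71.5 and 73.2 FPKM with BRCA1 plasmid and 26.5, 25.3 and 26.4 FPKM with empty plasmid. All OV-BRCA1 values were therefore well above all NC values, with a ratio of mean FPKM of 2.79. DUSP5 rose with a log2 fold change of 1.44 (SE 0.05, limma adjusted p = 8.53e-06). DUSP4 (ENSG00000120875, chromosome 8, 29333064 to 29350668, minus strand), a nuclear phosphatase of ERK and JNK, stood at 27.2, 27.5 and 26.1 against 13.5, 14.1 and 13.9 FPKM. Its samples also separated fully, and the ratio of mean FPKM was 1.95. The log2 fold change of 0.91 (95% confidence interval 0.79 to 1.04, limma adjusted p = 9.45e-05) was below the fold change that defines a DEG. In both genes nearly the whole signal came from 1 protein-coding transcript, with group means of 98.5% to 99.7% of FPKM for DUSP5-201 and 98.9% to 99.1% for DUSP4-201. DUSP4 and DUSP5 kept their calls in all 13 alternatives.

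DUSP6 (ENSG00000139318, chromosome 12, 89347232 to 89353271, minus strand) is the cytoplasmic, ERK-selective phosphatase of the list. It stood at 7.68, 7.61 and 6.72 FPKM in the OV-BRCA1 group and at 6.33, 5.53 and 5.05 FPKM in the NC group. The groups did not overlap, but the lowest OV-BRCA1 sample lay close to the highest NC sample, and the ratio of means was 1.30. The log2 fold change was 0.33 (95% confidence interval 0.09 to 0.57, limma adjusted p = 0.0425), just inside the threshold. The call was lost on leaving out OV-BRCA1 replicate 1, 2 or 3 (adjusted p = 0.112, 0.111 and 0.0509) or NC replicate 2 or 3 (0.104 and 0.114), in fits with fewer samples. It was also lost without the filter on low values (adjusted p = 0.0811), with rescaling to nuclear protein-coding genes (0.0625) and with the most abundant transcript alone (0.0752). The most abundant transcript, DUSP6-201 (4400 bases), stood at 5.06, 4.28 and 3.88 against 2.61, 3.28 and 3.20 FPKM, whereas DUSP6-202 (1959 bases) stood at 1.14, 1.84 and 1.66 against 2.45, 1.34 and 1.38 FPKM. An antisense gene, AC024909.2, shares 1875 of the 4632 exonic bases of DUSP6 and had group means of 0.234 and 0.676 FPKM. Use of the strand in the quantification is not given in the sources used here.

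DUSP10 (ENSG00000143507, chromosome 1, 221701424 to 221742176, minus strand) prefers p38 and JNK over ERK and was the least abundant of the 10 genes. It stood at 3.22, 2.64 and 2.03 FPKM in the OV-BRCA1 group and at 2.37, 2.22 and 1.6 FPKM in the NC group. These ranges overlapped, and the log2 fold change of 0.24 (95% confidence interval -0.15 to 0.63, limma adjusted p = 0.289) did not pass in any of the 13 alternatives. Over these it ran from 0.07, with the most abundant transcript alone, to 0.37, without OV-BRCA1 replicate 3. The value rests on an estimated 61.3 to 85 fragments per sample. Its only coding transcript, DUSP10-201, stood at 1.34 ± 0.098 and 1.24 ± 0.292 FPKM (SD, n = 3 each). DUSP10-203, a transcript annotated for nonsense-mediated decay, reached 1.92 FPKM in OV-BRCA1 replicate 1 and lay between 0.221 and 0.889 FPKM elsewhere.

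**Figure D2:**
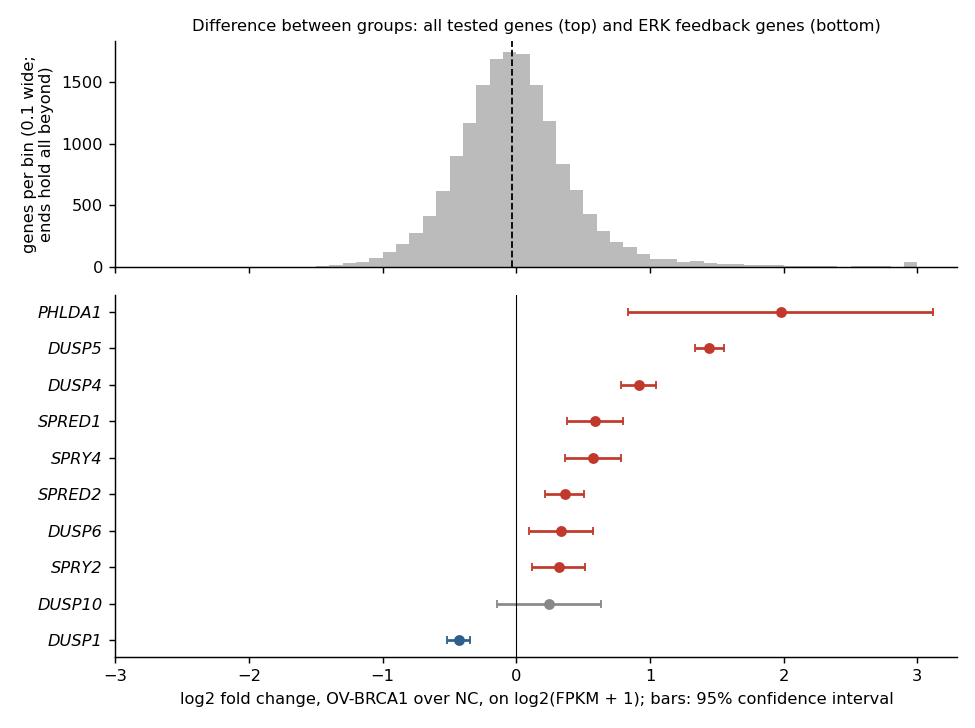
Top, number of genes per bin of log2 fold change (horizontal axis, OV-BRCA1 over NC on log2(FPKM + 1)) for all 16321 genes tested, with a dashed line at their median. Bottom, log2 fold change of each ERK feedback gene with its 95% confidence interval, in red where it rose, blue where it fell and grey where it did not pass. PHLDA1 has the largest estimate and the widest interval, DUSP5 and DUSP4 follow with narrow ones, and only DUSP1 lies below 0 with its whole interval.

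The promoters of DUSP1, which fell, and SPRY2, which rose, are shown to set the one lowered gene beside a raised one, since both RefSeq start sites lie at or before the first base of the GENCODE gene. SPRY2 lost its call in 5 of 13 alternatives, and the window shown is not the only one of that gene. A link between motifs and the direction of change was not tested. RefSeq windows of GRCh38.p14, from 250 bases before to 50 bases after a start site, were found for 8 of the 10 genes (12 windows). DUSP4 and DUSP5, which rose with the smallest adjusted p-values, had no window and were not searched. The windows were searched on both strands for AP-1 (TGANTCA), CRE (TGACGTCA), ETS (CCGGAAGT), the CArG box, the NF-kB motif and an ISRE core (a repeat of GAAA with 2 bases between), motifs that do not overlap in the matches found. Only the bases before the start site are printed, 5′ to 3′ on the strand of the gene, and capitals mark a motif match.
DUSP1, chr5:172771196-172771445, minus strand: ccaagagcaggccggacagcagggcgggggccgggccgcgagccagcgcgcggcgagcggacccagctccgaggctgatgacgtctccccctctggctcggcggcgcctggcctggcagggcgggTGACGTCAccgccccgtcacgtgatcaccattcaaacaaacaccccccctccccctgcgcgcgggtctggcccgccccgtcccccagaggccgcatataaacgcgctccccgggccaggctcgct
SPRY2, chr13:80341127-80341376, minus strand: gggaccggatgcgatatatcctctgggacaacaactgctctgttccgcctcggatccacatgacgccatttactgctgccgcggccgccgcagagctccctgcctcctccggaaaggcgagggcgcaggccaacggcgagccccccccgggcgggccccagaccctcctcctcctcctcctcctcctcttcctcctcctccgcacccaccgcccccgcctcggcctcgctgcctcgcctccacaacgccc
The DUSP1 window held a CRE, the palindrome bound by CREB and ATF factors, starting 125 bases before the start site. It was the only CRE in the 12 windows, and 1.85% of all 35116 windows in the table held one. SPRED2 was the only other of the 8 genes with a match, AP-1 sites at the start site and after it (7.71% of all windows hold one). No ETS, CArG, NF-kB or ISRE match was found in the 12 windows, against 4.14%, 1.29%, 11.3% and 3.57% of all windows. A match is a string of letters in a short window and does not show that a factor binds there.

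Sprouty proteins restrain RAS activation below receptor tyrosine kinases. SPRY4 (ENSG00000187678, chromosome 5, 142310427 to 142326455, minus strand) stood at 3.98, 3.69 and 3.76 FPKM in the OV-BRCA1 group and at 2.14, 2.50 and 2.09 FPKM in the NC group. The samples separated fully, with a ratio of mean FPKM of 1.70. SPRY4 rose with a log2 fold change of 0.57 (SE 0.09, limma adjusted p = 0.00369), and the gene kept its call in all 13 alternatives. On this scale low values are compressed, and with a pseudocount of 0.1 the log2 fold change of SPRY4 was 0.74. The antisense gene SPRY4-AS1 overlaps the locus but shares none of its exonic bases, and its group means were 2.46 and 0.990 FPKM.

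SPRY2 (ENSG00000136158, chromosome 13, 80335976 to 80340951, minus strand) stood at 8.29, 8.01 and 7.39 against 6.51, 6.29 and 5.64 FPKM. The groups did not overlap, and the ratio of means was 1.29. The log2 fold change of 0.32 (95% confidence interval 0.12 to 0.51, limma adjusted p = 0.0267) lost its call without OV-BRCA1 replicate 1 or 2 (adjusted p = 0.0768 and 0.0730) and without NC replicate 2 or 3 (0.0590 and 0.0755). The files divide SPRY2 over 2 coding transcripts, and the division differed in 1 sample. SPRY2-202 stood between 5.32 and 7.34 FPKM in 5 samples and at 1.14 FPKM in NC replicate 3, where SPRY2-201 stood at 4.50 FPKM against 0.670 to 1.36 elsewhere. The sum of both transcripts in that sample, 5.64 FPKM, was the lowest of its group, and SPRY2-202 taken alone had a larger log2 fold change of 0.82 that did not pass (limma adjusted p = 0.286).

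Spred proteins bind the RAS inhibitor neurofibromin and bring it to the membrane. SPRED1 (ENSG00000166068, chromosome 15, 38252326 to 38357249, plus strand) stood at 6.92, 7.62 and 8.19 FPKM in the OV-BRCA1 group and at 5.01, 4.49 and 4.57 FPKM in the NC group. Every OV-BRCA1 sample was higher, and the log2 fold change was 0.59 (SE 0.09, limma adjusted p = 0.00332). SPRED2 (ENSG00000198369, chromosome 2, 65310851 to 65432637, minus strand) was more abundant, at 25.8, 28.3 and 27.4 against 21.2, 19.97 and 21.6 FPKM. It also separated without overlap, by a smaller log2 fold change of 0.36 (SE 0.06, limma adjusted p = 0.00582). Both calls held in all 13 alternatives. The main transcript SPRED2-201 (4097 bases) carried most of the difference, with 20.9 ± 0.448 against 15.8 ± 0.478 FPKM, whereas the short SPRED2-204 (467 bases) stood at 4.69 ± 1.6 and 4.45 ± 0.674 FPKM (SD, n = 3 each).

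PHLDA1 (ENSG00000139289, chromosome 12, 76025447 to 76033932, minus strand) encodes a pleckstrin homology-like domain protein and is a transcript marker of ERK output, not a known phosphatase. It stood at 52.4, 49.0 and 21.1 FPKM in the OV-BRCA1 group and at 12.35, 4.47 and 12.28 FPKM in the NC group. The groups did not overlap, but OV-BRCA1 replicate 3 and NC replicate 2 lay far below the other samples of their groups. The log2 fold change of 1.98 was the largest of the list and had the widest 95% confidence interval, 0.83 to 3.12 (limma adjusted p = 0.0205). Without OV-BRCA1 replicate 1 or 2 the adjusted p-value was 0.0637 and 0.0646, and without NC replicate 2 the log2 fold change was 1.55. The call was also lost without the filter on low values (adjusted p = 0.0595) and with the most abundant transcript alone (0.0625). PHLDA1-202 held 96.3% of the FPKM in OV-BRCA1 samples and 91.9% in NC samples. The genes whose values over the 6 samples were most like those of PHLDA1 were TNC, which encodes tenascin-C of the extracellular matrix, the nucleotidase gene NT5C3A and KLHDC7B, with root mean square differences in log2(FPKM + 1) of 0.421, 0.442 and 0.478 after subtracting the NC mean of each gene. The match was loose, as the nearest gene of each other feedback gene differed by only 0.0168 to 0.0577. TNC, at 49.5, 50.6 and 42.2 FPKM in the OV-BRCA1 group, lacked the low replicate 3 of PHLDA1.

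**Figure D3:**
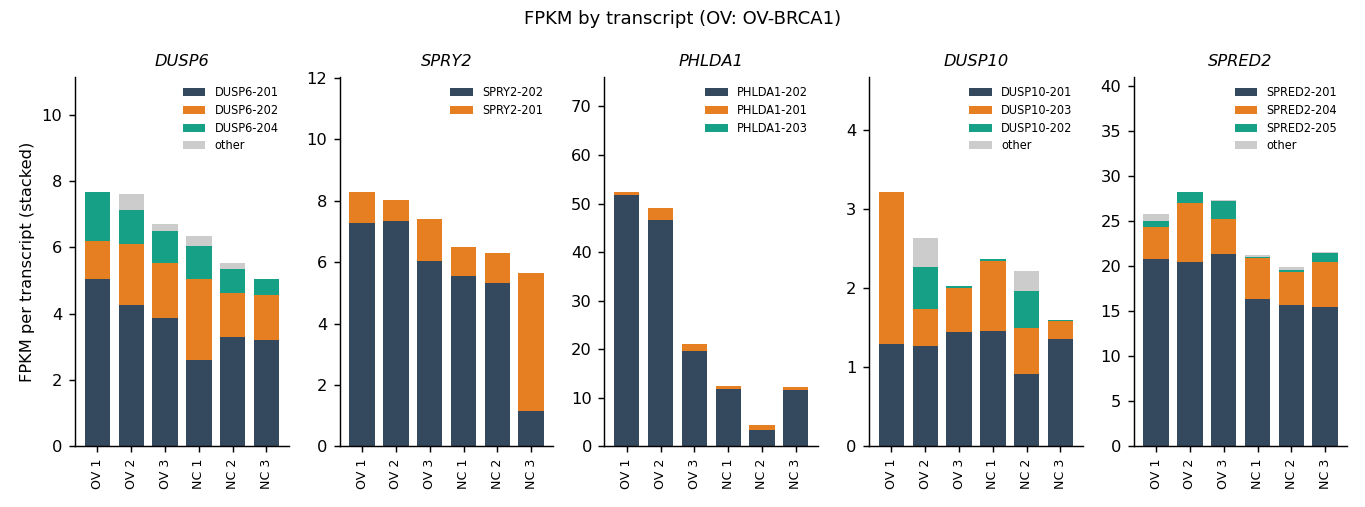
FPKM of single transcripts (vertical axis, stacked) in each of the 6 samples for the 5 ERK feedback genes with divided or widely spread values. SPRY2 changes its division only in NC replicate 3, PHLDA1-202 carries the spread of PHLDA1, and DUSP10-203 is highest in OV-BRCA1 replicate 1.

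FPKM is per length, so levels can be set side by side between genes. In the NC group the order by mean FPKM was DUSP1, DUSP5, SPRED2, DUSP4, PHLDA1, SPRY2, DUSP6, SPRED1, SPRY4 and DUSP10, and the neighbours PHLDA1 and SPRY2, SPRY2 and DUSP6, and SPRY4 and DUSP10 overlapped in their samples. In the OV-BRCA1 group the order was DUSP1, DUSP5, PHLDA1, SPRED2, DUSP4, SPRY2, SPRED1, DUSP6, SPRY4 and DUSP10. Here the neighbours from PHLDA1 to DUSP4 and from SPRY2 to DUSP6 overlapped. DUSP1 was thus first and DUSP10 last in both groups, and mean DUSP5 FPKM was 72.7 ± 0.981 against 26.1 ± 0.655 (SD, n = 3 each).

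The remaining members of the same families were read from lists of known genes. Of 5 other MAP kinase phosphatases, 3 rose (60%, against 16.4% of all genes tested) and none fell. DUSP2, a nuclear phosphatase of the early response, stood at 7.40, 6.38 and 6.65 against 2.44, 2.95 and 2.86 FPKM (log2 fold change 1.06, limma adjusted p = 0.000492). DUSP7, the close relative of DUSP6 that also acts on ERK, stood at 8.53, 9.33 and 9.58 against 4.17, 3.87 and 4.05 FPKM (log2 fold change 1.01, limma adjusted p = 0.000244). Both were thus higher in every OV-BRCA1 sample. DUSP16, which prefers JNK and p38, rose by 0.44 on the log2 scale (0.74 with its most abundant transcript alone), while DUSP8 (-0.17) and DUSP9 (0.15) did not pass. Among 3 other Sprouty and Spred genes, SPRED3 was the only one tested and did not pass (log2 fold change -0.38, or -0.71 with a pseudocount of 0.1), and SPRY1 and SPRY3 were below the filter.

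Of 8 other inhibitors of the pathway, 1 rose and 2 fell, a share of 37.5% called that is close to the 35.3% of all genes tested. ERRFI1, the ERK-induced inhibitor of EGFR known as MIG6, stood at 81.4, 80.4 and 80.0 FPKM against 37.3, 35.8 and 35.8 FPKM. That difference was large next to its spread (log2 fold change 1.13, limma adjusted p = 1.66e-05). PEBP1, an inhibitor of the cascade, fell by 0.42 and LZTR1, an adaptor for the degradation of RAS proteins, fell by 0.97 on the log2 scale. With its most abundant transcript alone, LZTR1 had a log2 fold change of -2.38 that did not pass (limma adjusted p = 0.0995). NF1 and RASA1, which inactivate RAS, had log2 fold changes of 0.34 and 0.18 and did not pass.

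Of 20 genes of the ERK cascade, which encode its kinases and adaptors, 2 rose, 4 fell and 14 did not pass, with a median log2 fold change of -0.02. Thus 10% rose and 20% fell, against 16.4% and 18.9% of all genes tested. MAP2K1, which encodes MEK1, rose by 0.57, whereas HRAS fell by 0.48 and SHC1 by 0.27 on the log2 scale. With the most abundant transcript alone, HRAS and SHC1 had log2 fold changes of -0.64 and -0.41 that did not pass (limma adjusted p = 0.282 and 0.816). MAPK3 fell by 0.44 (limma adjusted p = 0.0275), a call lost in 4 of 6 fits that left out 1 sample, namely OV-BRCA1 replicate 1 or 3 and NC replicate 2 or 3 (adjusted p = 0.0689 to 0.0806). It was also lost without the filter on low values (0.0640) and with the most abundant transcript alone (0.0635). RPS6KA3, which encodes the ERK substrate RSK2, rose by 0.30 (limma adjusted p = 0.0272). It lost its call without OV-BRCA1 replicate 2 or 3 or NC replicate 1, 2 or 3 (adjusted p = 0.0517 to 0.0804), with the replicate block (0.0732) and with the most abundant transcript alone (0.0522). For the JNK and p38 cascades, 2 of 12 genes tested rose (MAPK13 and MAP2K3, log2 fold changes 0.80 and 0.70) and none fell. The share of 16.7% higher is close to the 16.4% of all genes tested. With the most abundant transcript alone the log2 fold change was 1.23 for MAPK13, and for MAP2K3 it was 2.02 and did not pass (limma adjusted p = 0.278). These are mRNA levels, and phosphorylation of the kinases was not measured.

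Upstream of the cascade, 6 of 8 EGFR ligands and receptors tested rose and none fell, with a median log2 fold change of 0.69. That is 75% higher, against 16.4% of all genes tested. EREG (epiregulin) stood at 69.5, 74.3 and 71.8 against 43.4, 43.3 and 42.9 FPKM (log2 fold change 0.72, limma adjusted p = 0.000134). HBEGF (0.77), BTC (0.98) and TGFA (0.72) also rose, and so did EGFR itself, whereas ERBB2 and ERBB3 did not pass. EGF was below the filter.

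Among 12 other transcripts that respond to ERK, 6 rose and 2 fell, with a median log2 fold change of 0.77. Thus 50% rose and 16.7% fell, against 16.4% and 18.9% of all genes tested. EPHA2, a receptor tyrosine kinase, stood at 157, 150 and 155 against 66.1, 64.8 and 65.4 FPKM, and IER3 at 138, 135 and 131 against 65.4, 63.3 and 66.5 FPKM. Neither gene overlapped between the groups. FOS, the immediate early component of AP-1, stood at 68.2, 70.6 and 72.9 FPKM in the OV-BRCA1 group and at 309, 329 and 299 FPKM in the NC group. FOS thus fell by 2.13 on the log2 scale (limma adjusted p = 3.88e-06), the opposite direction to DUSP4, DUSP5 and EPHA2. EGR1, named after its values had been seen, stood at 118, 122 and 120 against 187, 188 and 183 FPKM and fell by 0.63 on the log2 scale. The list therefore held both directions, as the feedback genes did with DUSP1. FOSL1, another AP-1 gene and also named after its values had been seen, stood at 68.2, 74.4 and 92.8 against 20.5, 13.5 and 17.4 FPKM. It rose by 2.14 on the log2 scale (limma adjusted p = 0.000337), opposite to FOS. CCND1, at 0.601 to 0.744 FPKM in the NC group, rose by 1.70 on the log2 scale (2.56 with a pseudocount of 0.1), and the ETS factor genes ETV5 and ETV4 rose by 0.72 and 0.81 on the log2 scale.

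**Figure D4:**
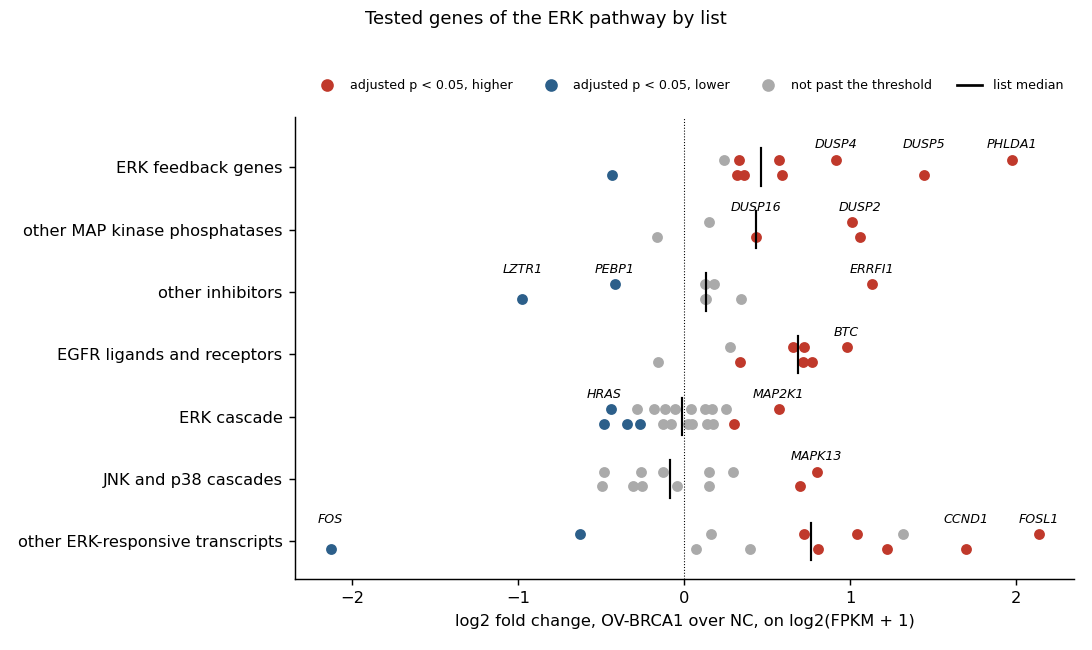
Log2 fold change (horizontal axis, OV-BRCA1 over NC on log2(FPKM + 1)) of every tested gene in 7 lists of the ERK pathway, red where it rose, blue where it fell, grey where it did not pass, with a black line at the median of each list. The medians of the feedback genes (0.47), the EGFR ligands and receptors (0.69) and the other ERK-responsive transcripts (0.77) lie to the right of 0, and those of the ERK cascade (-0.02) and the JNK and p38 cascades (-0.08) lie near 0.

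With 3 samples against 3, the smallest p-value that an exact permutation test (two-sided) of 1 gene can give is 0.1, the value found for the 9 genes without overlap (0.3 for DUSP10).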

How the data were processed

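The deposited FPKM values are the authors' own, one per transcript and sample. The submitters' processing notes name FastQC, HISAT2 and the genome build hg38. The quantification tool, the annotation release and the use of strand are not given in the sources used here. The tables hold 199167 transcripts of 58174 genes. Genes were named by GENCODE release 29 (57836 IDs matched), in which 98.7% of the matched transcripts lay at the same GRCh38 position. The per-sample files held the same values as the table of the whole series.

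Samples were grouped by the labels. FPKM was summed per gene, and genes reaching 0.5 FPKM in 3 or more samples were tested on log2(FPKM + 1) with limma 3.58.1 (trend, not robust) in R 4.3.3. The study tested counts with DESeq, which the files analysed here do not allow, as they hold FPKM. The study describes its samples as biological replicates, and the labels name no batch. Depth was estimated from 14216 genes with a single transcript, in which 184 to 278 values lay within 0.5% of 1 fragment. As only 31.3% to 35.3% of low values lay within 0.1 of whole fragments, reads were not recovered. Estimated fragments differed between samples of one group by more than counting error (median variance ratio 2.45 to 7.09). In data simulated for this comparison over 16321 genes, limma called 89.0% of 100 genes changed by 1 and 96.0% of 100 changed by 2 on the log2 scale, with 9 false calls. The simulated noise was independent and drawn from the variances that limma had fitted, so the model itself was not tested. Far fewer genes were changed than were called in the data, and the rates may not carry over.

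The genes and lists were chosen with earlier results of these data known. By rule the text names the 10 genes, BRCA1, at most 4 genes per list by adjusted p-value, the 3 genes most like the feedback gene with the largest change, and transcripts that lead a gene or hold 20% of it. Other genes named (MAPK3, RPS6KA3, NF1, RASA1, DUSP9, SPRY1, SPRY3, EGFR, ERBB2, ERBB3, EGF, EGR1, FOSL1, ETV4, ETV5, GRB2, SHOC2, IER2, MAPK9, MAPK11, MAPK14, antisense genes and cell type markers) were chosen after their values had been seen. Some genes of the lists are counted but not reported here by name. The alternatives were a smaller pseudocount (0.1), testing without the filter, a block for replicate number, leaving out each sample, median-of-ratios scaling, scaling to nuclear protein-coding genes, the most abundant transcript and robust estimation. Figures were drawn with matplotlib 3.10.9 in Python 3.11.15.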

Additional observations from a re-analysis of the deposited data

How the results depend on the processing

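Across the 10 feedback genes and 13 alternatives, 113 of 130 results kept their side of the threshold, 17 lost it and none changed direction. The losses were in DUSP6 (8), SPRY2 (5) and PHLDA1 (4). With each sample left out in turn, the number of feedback genes that rose ran from 5 to 8, with 1 that fell in each fit, their median log2 fold change from 0.45 to 0.48, the genes called by the adjusted p-value from 4415 to 4765 and the DEGs from 646 to 701. The lowest number, 5, came without OV-BRCA1 replicate 1 and without OV-BRCA1 replicate 2. With the most abundant transcript in place of the sum, 5 feedback genes rose, their median was 0.58, and 3291 genes were called against 5764. A pseudocount of 0.1 gave 1280 DEGs against 651, with 764 up and 516 down against 472 and 179. With the replicate number as a block, 8 feedback genes rose, 1 fell, the median stayed at 0.47 and 4595 genes were called, with 646 DEGs. Over all genes tested, the numbers did not pair the samples (correlations of deviations between -0.0244 and 0.025), and not every sample correlated best with its own number. Single genes with a shared pattern by number are given under the other observations. Median-of-ratios scaling moved the median of all genes to -0.01 and scaling to nuclear protein-coding genes to -0.07, with -0.04 as reported. DUSP10, with an estimated 61.3 to 85 per sample, had the fewest fragments of the 10 feedback genes.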

Other observations

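Some genes of the pathway varied more within the groups than between them, which limits what the lists can show. GRB2, the adaptor that joins receptors to SOS, stood at 10.9, 11.0 and 34.55 FPKM in the OV-BRCA1 group and at 9.52, 16.1 and 34.45 FPKM in the NC group, and SHOC2 at 15.2, 14.9 and 6.52 against 11.6, 13.9 and 5.13 FPKM. IER2, an immediate early gene, stood at 60.5, 34.25 and 21.3 against 68.35, 23.1 and 24.02 FPKM. In GRB2 and SHOC2 replicate 3, and in IER2 replicate 1, stood apart in both groups. With the replicate number as a block, GRB2, SHOC2 and IER2 still did not pass (limma adjusted p = 0.610, 0.0995 and 0.781). MAPK14, which encodes p38 alpha, stood at 5.48, 14.4 and 5.63 against 16.2, 14.7 and 5.88 FPKM. PHLDA1 is the only one of the 10 feedback genes with a spread of this size. SPRY1, below the filter on low values, stood at 0.385, 0.597 and 0.805 against 0.116, 0.177 and 0.184 FPKM, without overlap between the groups and with no test.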
